A study of Mus musculus with 4 samples.

Results

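The transcripts of 4 genes whose products restrain immune responses, Il10, Ebi3, Tgfb1 and Fgl2, were examined in CD4 T cells sorted from the lamina propria of the mouse small intestine. The 4 genes were taken by name from the 31053 genes counted in each library, and all 4 passed the filter on low counts. The cells came from mixed bone marrow chimeras, in which marrow of wild type CD45.1 mice and of Bcl3-/- CD45.2 mice had been given 50:50 (10000000 cells) to irradiated Rag1-/- mice, and the animals were examined after 16 weeks. Rag1-/- hosts form no T cells or B cells of their own, so every T cell should descend from a donor, and both donors' cells matured in the same animal. BCL3 belongs to the IkB family but acts in the nucleus, where it partners p50 or p52 dimers of NF-kB. Sorted CD45+CD3+CD4+ live cells were stained with DNA-tagged antibodies, 1 for each CD45 allele, and run on the 10x Genomics 3' chemistry. Each unique molecular identifier (UMI) stands for 1 captured RNA molecule.

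IL-10, encoded by Il10, is the main cytokine by which T cells limit inflammation in the gut, and it acts through IL-10RA and IL-10RB, JAK1, TYK2 and STAT3. Ebi3 encodes a secreted cytokine subunit without activity of its own in the classical scheme: with p28 (Il27) it forms IL-27, and with p35 (Il12a) it forms IL-35. Tgfb1 encodes latent TGF-beta 1, which is cut by furin, tethered to the cell surface by GARP (Lrrc32) and released by integrins that contain alpha V and beta 8. Fgl2 encodes fibrinogen-like protein 2, which regulatory T cells secrete and which binds inhibitory Fc gamma receptors. Regulatory T cells are defined by the transcription factor Foxp3.

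Il10 lies at chr1:131019845-131024974, Ebi3 at chr17:55952640-55957022, Tgfb1 at chr7:25687002-25705077 and Fgl2 at chr5:21372642-21378374, all on the plus strand and protein-coding (GRCm38, GENCODE M21). The donors differ at BCL3, a partner of NF-kB, so the stretch before each gene's start is shown for the 3 genes of 4 with an entry in the RefSeq table (GRCm38.p6, plus strand). The windows are chr17:55952373-55952622 for Ebi3, chr7:25686752-25687001 for Tgfb1 and chr5:21372423-21372671 for Fgl2. Il10 had no entry. Capitals mark matches, on either strand, to GGGNNNNNCC (a form of the core of NF-kB sites) or TGANTCA (the AP-1 site).
Ebi3: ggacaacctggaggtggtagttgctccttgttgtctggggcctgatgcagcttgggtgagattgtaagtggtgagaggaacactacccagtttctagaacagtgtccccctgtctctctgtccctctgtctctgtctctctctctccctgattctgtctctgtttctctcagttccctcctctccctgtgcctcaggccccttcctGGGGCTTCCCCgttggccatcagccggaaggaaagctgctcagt
Tgfb1: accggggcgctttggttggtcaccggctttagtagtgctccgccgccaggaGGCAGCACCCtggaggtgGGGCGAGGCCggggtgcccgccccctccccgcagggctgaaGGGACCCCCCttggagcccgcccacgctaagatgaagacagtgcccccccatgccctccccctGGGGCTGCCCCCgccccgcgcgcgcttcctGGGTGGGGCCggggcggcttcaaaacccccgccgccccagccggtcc
Fgl2: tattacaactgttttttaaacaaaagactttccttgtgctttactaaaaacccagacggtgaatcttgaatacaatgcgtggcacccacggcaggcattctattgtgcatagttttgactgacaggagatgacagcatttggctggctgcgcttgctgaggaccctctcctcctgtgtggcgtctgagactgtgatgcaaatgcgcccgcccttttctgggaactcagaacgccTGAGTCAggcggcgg
In the Ebi3 window the overlapping matches GGGGCTTCCC and GGGCTTCCCC began 44 and 43 bases before the RefSeq start. The Tgfb1 window, which is 75.2% G and C, held matches from 199 to 47 bases before the start, with GGGGCTGCCC, GGGCTGCCCC and GGCTGCCCCC overlapping each other. The Fgl2 window held none of these and 1 AP-1 match, TGAGTCA, 16 bases before the RefSeq start and so inside the gene as GENCODE M21 draws it. Of 32817 promoter windows of 250 bases, 45.8% held the NF-kB pattern and 6.75% the AP-1 pattern. The forkhead pattern GTAAACA, found in 3.16% of windows, was in none of the 3. A match describes letters and not binding.

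Recipients 1, 2 and 4 entered the comparisons; recipient 3, with 30 wild type cells of which 1 was Foxp3+, did not. Each recipient is 1 animal and 1 library, and the sums over its cells are the replicates. Of 10011, 10093 and 1662 barcodes, 9301, 9244 and 1415 held at least 500 genes and at most 10% mitochondrial UMIs and were kept. They held 60347749, 59190104 and 8642411 gene UMIs before this filter. The median depth of kept cells was 5932, 5782.5 and 5836 UMIs per cell, and no pair of libraries had more than 26 barcodes in common. The donor was called at 10 or more tag UMIs and a ratio of at least 4, which gave 736, 851 and 102 CD45.1 cells, 8398, 8198 and 1289 CD45.2 cells, and 167, 195 and 24 cells without a donor. Cells with at least 1 Foxp3 UMI numbered 1636, 1833 and 317. Only 61, 61 and 6 of these were CD45.1, and a sum needed at least 20 cells, so wild type Foxp3+ cells have n = 2. Foxp3-zero cells were split by at least 3 Il17a UMIs, at least 3 Ccl5 UMIs or at least 1 Cxcr5 UMI into Il17a, Ccl5 and Cxcr5 cells, cells that met more than 1 of these, and no-split cells that met none. The 5 pan-T-cell markers summed to between 3550 and 4437 counts per 1000000 UMIs (CPM) in every group. Bcl3 itself stood at 31.4, 21.6 and 13.8 CPM in cells labelled CD45.1 and at 76.2, 76.5 and 76.0 CPM in cells labelled CD45.2. Bcl3 was thus higher in the cells labelled Bcl3-/-. Which stretch of Bcl3 is deleted is not given in the labels, and 3' tags outside it check nothing, so wild type and Bcl3-/- here mean cells so labelled. The direction of each donor difference rests on those labels and would turn if they were exchanged.

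Il10 was higher in Foxp3+ than in Foxp3-zero cells of both donors, with the largest log2 difference of the 4 genes in each. A cell with no Foxp3 UMI can still hold Foxp3 RNA that was not captured, so the Foxp3-zero group is not free of regulatory T cells. In wild type cells it stood at 728 and 826 CPM in the Foxp3+ cells of recipients 1 and 2, against 29.6, 52.1 and 1.63 CPM in the Foxp3-zero cells of recipients 1, 2 and 4. In Bcl3-/- cells it stood at 1071, 960 and 154 CPM in Foxp3+ cells and at 138, 136 and 16.5 CPM in Foxp3-zero cells. Among sums of at least 20 cells the groups did not overlap in either donor. Even the low Bcl3-/- Foxp3+ value of recipient 4 lay above every Foxp3-zero value. The 6 wild type Foxp3+ cells of recipient 4, under that minimum, held 1 Il10 UMI (25.0 CPM), inside the wild type Foxp3-zero range. The share of all genes whose groups separate in this way was not counted, here or for the genes below. The log2 difference was 4.19 (SE 0.19, n = 2 and 3, edgeR adjusted p = 2.9e-08) in wild type and 2.95 (SE 0.14, n = 3, edgeR adjusted p = 1.6e-08) in Bcl3-/- cells.

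Of the 4 genes, Il10, Ebi3 and Fgl2 were called higher in Foxp3+ cells of the Bcl3-/- donor, where 18.0% of 11308 genes were called in either direction and 9.43% as higher. In the wild type donor Il10 and Fgl2 were called, against 4.17% of genes in either direction and 2.23% as higher. Tgfb1 was called in neither donor. The median log2 difference over all genes lay within 0.1 of 0 in both donors.

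Ebi3 was sparse but followed Foxp3. Bcl3-/- Foxp3+ cells had 18.1, 28.0 and 29.9 CPM (181, 315 and 49 UMIs) in recipients 1, 2 and 4, and Foxp3-zero cells of the same donor 3.17, 3.73 and 6.13 CPM. The groups did not overlap, and the log2 difference was 2.62 (SE 0.16, edgeR adjusted p = 1.2e-07). Wild type Foxp3+ cells had 12.3 and 5.05 CPM, from 5 and 2 UMIs, and their Foxp3-zero cells 0.673, 1.97 and 1.63 CPM, from 3, 10 and 1 UMIs. The wild type difference, 2.64 (SE 0.78), was of like size but missed the threshold (edgeR adjusted p = 0.081). It passed with DESeq2 (2.71, adjusted p = 0.0046), with all genes kept (2.66, edgeR adjusted p = 0.018) and in cells of 3000 to 10000 UMIs (3.42, edgeR adjusted p = 0.028). It missed in the other settings, from 1.39 without recipient 1 (edgeR adjusted p = 0.69) to 3.87 without recipient 2 (edgeR adjusted p = 0.064).

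Fgl2 was higher in Foxp3+ cells of both donors, by less. Bcl3-/- Foxp3+ cells had 357, 312 and 283 CPM and Foxp3-zero cells 181, 172 and 150 CPM, with no overlap. Wild type Foxp3+ cells had 251 and 207 CPM and Foxp3-zero cells 80.9, 105 and 94.6 CPM, again without overlap. The log2 difference was 0.90 (SE 0.09, edgeR adjusted p = 6.3e-06) in Bcl3-/- and 1.17 (SE 0.15, edgeR adjusted p = 5.3e-04) in wild type cells, the latter lost when recipient 3 was added (1.07, edgeR adjusted p = 0.096).

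Tgfb1 differed least. It stood at 192 and 172 CPM in wild type Foxp3+ cells against 116, 135 and 122 CPM in Foxp3-zero cells, a log2 difference of 0.40 (SE 0.13, edgeR adjusted p = 0.13). In Bcl3-/- cells it stood at 204, 198 and 150 CPM against 164, 170 and 134 CPM, a difference of 0.23 (SE 0.08, edgeR adjusted p = 0.054). Wild type groups did not overlap, whereas the Bcl3-/- Foxp3+ value of recipient 4 fell inside the range of Foxp3-zero cells. The Bcl3-/- difference passed the threshold with DESeq2 (0.23, adjusted p = 0.038), and by edgeR in 4 further settings, with values from 0.22 to 0.24.

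**Figure D1:**
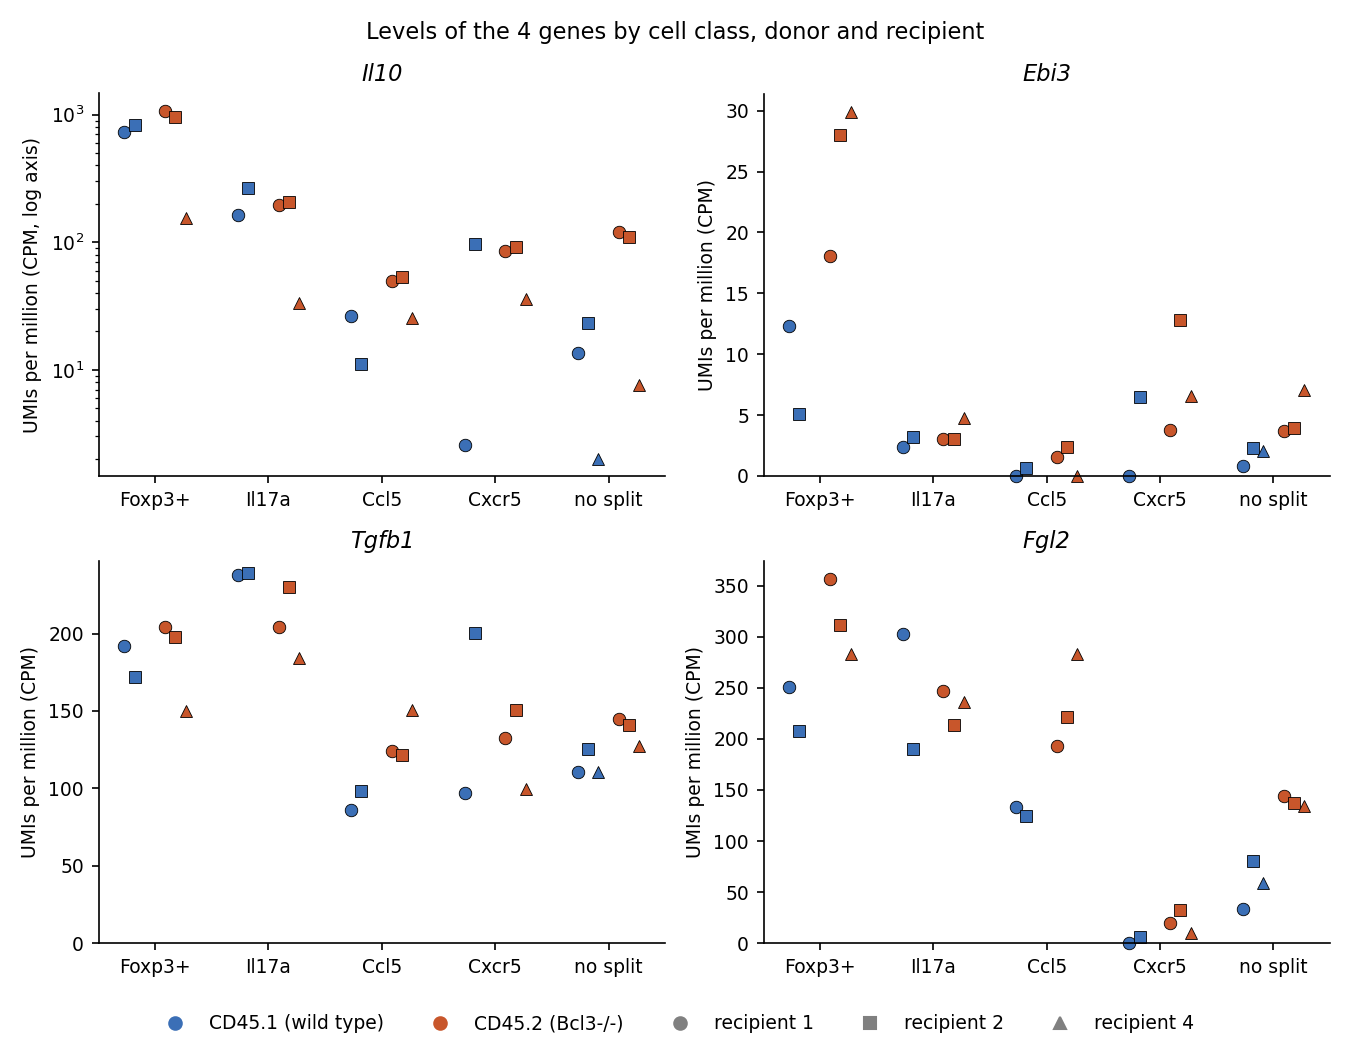
Level of each gene in CPM, per recipient (symbol shape) and donor (colour), in Foxp3+ cells and in the Foxp3-zero classes, for sums of at least 20 cells; the Il10 axis is logarithmic. Of the classes shown, which leave out cells that met more than 1 split, Bcl3-/- cells of each recipient have most Il10 and Ebi3 in Foxp3+ cells and least Fgl2 in Cxcr5 cells.

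The Foxp3-zero classes differed from each other in a different order for each gene, described here in Bcl3-/- cells, which had 3 recipients in each class but 1: the cells that met more than 1 split, with 204 and 241 cells in recipients 1 and 2 and 10, under the minimum, in recipient 4. As the background for the class contrasts of this donor, 19.7%, 24.6%, 28.7% and 22.1% of 10350 genes were called between Foxp3+ cells and Il17a, Ccl5, Cxcr5 and no-split cells. Between Il17a cells and the Ccl5, Cxcr5 and no-split classes it was 22.9%, 32.6% and 21.6%, between Ccl5 and Cxcr5 or no-split cells 31.0% and 9.25%, and between Cxcr5 and no-split cells 24.1%. Between Foxp3+ cells and those that met more than 1 split it was 10.3%. For Il10 the order was Foxp3+, then Il17a cells (198, 207 and 33.3 CPM) with those that met more than 1 split (201 and 209 CPM), then no-split (120, 109 and 7.56 CPM) and Cxcr5 cells (84.9, 92.3 and 35.9 CPM), then Ccl5 cells (49.7, 53.4 and 25.5 CPM). Foxp3+ cells lay above Il17a cells by 2.33 (SE 0.22, edgeR adjusted p = 1.2e-08), above those that met more than 1 split by 2.34 (SE 0.25, edgeR adjusted p = 2.5e-07), and Il17a above no-split cells by 0.90 (SE 0.22, edgeR adjusted p = 0.0034). No-split and Cxcr5 cells, neighbours in this order, did not differ beyond their spread (Cxcr5 minus no-split -0.19, SE 0.26, edgeR adjusted p = 0.65). This order held in recipients 1 and 2. In recipient 4 Cxcr5 cells (35.9 CPM) lay above Il17a cells (33.3 CPM), and Ccl5 cells (25.5 CPM) above no-split cells (7.56 CPM). Over the 3 recipients, Ccl5 cells lay below no-split cells by 0.98 (Ccl5 minus no-split -0.98, edgeR adjusted p = 0.011). Without recipient 2 these steps kept their sizes but missed the threshold (Il17a minus no-split 0.93, edgeR adjusted p = 0.051; Ccl5 minus no-split -0.94, edgeR adjusted p = 0.17), and without recipient 1 the latter was -0.81 (edgeR adjusted p = 0.090). Without the recipient as a block no Il10 step among Foxp3-zero classes was called (edgeR adjusted p = 0.15 to 0.83).

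For Ebi3 no Foxp3-zero class came near Foxp3+ cells. The highest was the Cxcr5 class, at 3.73, 12.8 and 6.53 CPM, from 12, 24 and 4 UMIs, which lay 1.68 below Foxp3+ cells on the log2 scale (SE 0.29, edgeR adjusted p = 5.3e-05). Cxcr5 cells exceeded Il17a cells (3.06, 3.07 and 4.76 CPM; Il17a minus Cxcr5 -1.16, SE 0.37, edgeR adjusted p = 0.016), which was lost without recipient 2 (-0.34, edgeR adjusted p = 0.69). No-split cells, at 3.73, 3.96 and 7.06 CPM, differed from neither neighbour at the threshold. Cells that met more than 1 split had 3.10 and 1.01 CPM, 3.47 below Foxp3+ cells on the log2 scale (SE 0.45, edgeR adjusted p = 4.4e-06). Ccl5 cells had 1.55, 2.35 and 0 CPM, below Cxcr5 cells (Ccl5 minus Cxcr5 -1.86, edgeR adjusted p = 0.0022; without recipient 2 -1.42 and 0.11).

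For Tgfb1 the Il17a and Foxp3+ cells and those that met more than 1 split had the higher means, and no-split, Cxcr5 and Ccl5 cells the lower, though in recipient 4 Foxp3+ and Ccl5 cells were level (150.2 and 150.5 CPM). Il17a cells had 204, 230 and 184 CPM and did not differ from Foxp3+ cells at the threshold (Foxp3+ minus Il17a -0.15, SE 0.09, edgeR adjusted p = 0.31). Nor did cells that met more than 1 split, at 196 and 217 CPM (-0.06, SE 0.11, edgeR adjusted p = 0.85). Foxp3+ cells lay above no-split cells by 0.40 (edgeR adjusted p = 0.0019; 0.37 and 0.074 without recipient 2). Il17a cells lay above no-split cells (145, 141 and 127 CPM) by 0.54 (SE 0.09, edgeR adjusted p = 7.1e-05), above Cxcr5 cells by 0.65 and above Ccl5 cells by 0.70. No-split, Cxcr5 and Ccl5 cells did not differ from each other at the threshold (edgeR adjusted p = 0.43 to 0.79). Wild type cells had their highest Tgfb1 values in the Il17a class as well, 238 and 239 CPM in recipients 1 and 2.

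For Fgl2 the Cxcr5 class was the exception. Bcl3-/- Cxcr5 cells had 20.2, 32.5 and 9.80 CPM, against 247, 213 and 236 CPM in Il17a, 193, 222 and 283 CPM in Ccl5 and 144, 137 and 135 CPM in no-split cells. Every Cxcr5 value lay below every value of these 3 classes. Cxcr5 cells were 3.79 below Foxp3+ cells on the log2 scale (SE 0.22, edgeR adjusted p = 9.9e-13) and 2.62 below no-split cells (SE 0.23, edgeR adjusted p = 3.7e-09). Wild type Cxcr5 cells held 0 Fgl2 UMIs among 46 cells and 1 among 22 cells. Il17a and Ccl5 cells did not differ at the threshold (0.03, SE 0.16, edgeR adjusted p = 0.93), and both lay above no-split cells, by 0.69 and 0.66 (edgeR adjusted p = 0.0015 and 0.0076; for Ccl5 cells 0.65 and 0.056 without recipient 2, and 0.56 and 0.066 without recipient 4). Foxp3+ cells lay above Il17a cells by 0.47 and above Ccl5 cells by 0.51 (edgeR adjusted p = 0.028 and 0.021), steps that were lost without recipient 2 (edgeR adjusted p = 0.15 and 0.069) and, for Ccl5 cells, without recipient 1 (0.32, edgeR adjusted p = 0.16). Cells that met more than 1 split had 242 and 217 CPM and did not differ from Foxp3+ cells at the threshold (0.51, SE 0.18, edgeR adjusted p = 0.076).

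In Bcl3-/- cells most Il10 and Ebi3 molecules came from the minority of Foxp3+ cells, whereas those of Tgfb1 and Fgl2 were spread. Foxp3+ cells held 18.9%, 22.2% and 21.8% of all UMIs in recipients 1, 2 and 4. They held 64.4%, 66.8% and 72.2% of the Il10 UMIs and 57.1%, 68.2% and 57.6% of the Ebi3 UMIs. Their share of Fgl2 UMIs was 31.5%, 34.1% and 34.5%, and of Tgfb1 UMIs 22.6%, 24.9% and 23.8%, the latter close to their share of all UMIs. Il17a cells added 17.5%, 15.8% and 8.02% of the Il10 UMIs. In wild type cells, 8.35% and 7.24% of all UMIs in recipients 1 and 2 lay in Foxp3+ cells. Those Foxp3+ cells held 69.2% and 55.3% of the Il10 UMIs. Few cells carried much of this: in each recipient the 7 with most Il10 held 52.4% and 70.9% of the Foxp3+ Il10 UMIs. Of the few wild type Ebi3 UMIs, 5 of 8, 2 of 12 and 0 of 1 lay in Foxp3+ cells of recipients 1, 2 and 4, and 6 of the 12 in recipient 2 lay in no-split cells.

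**Figure D2:**
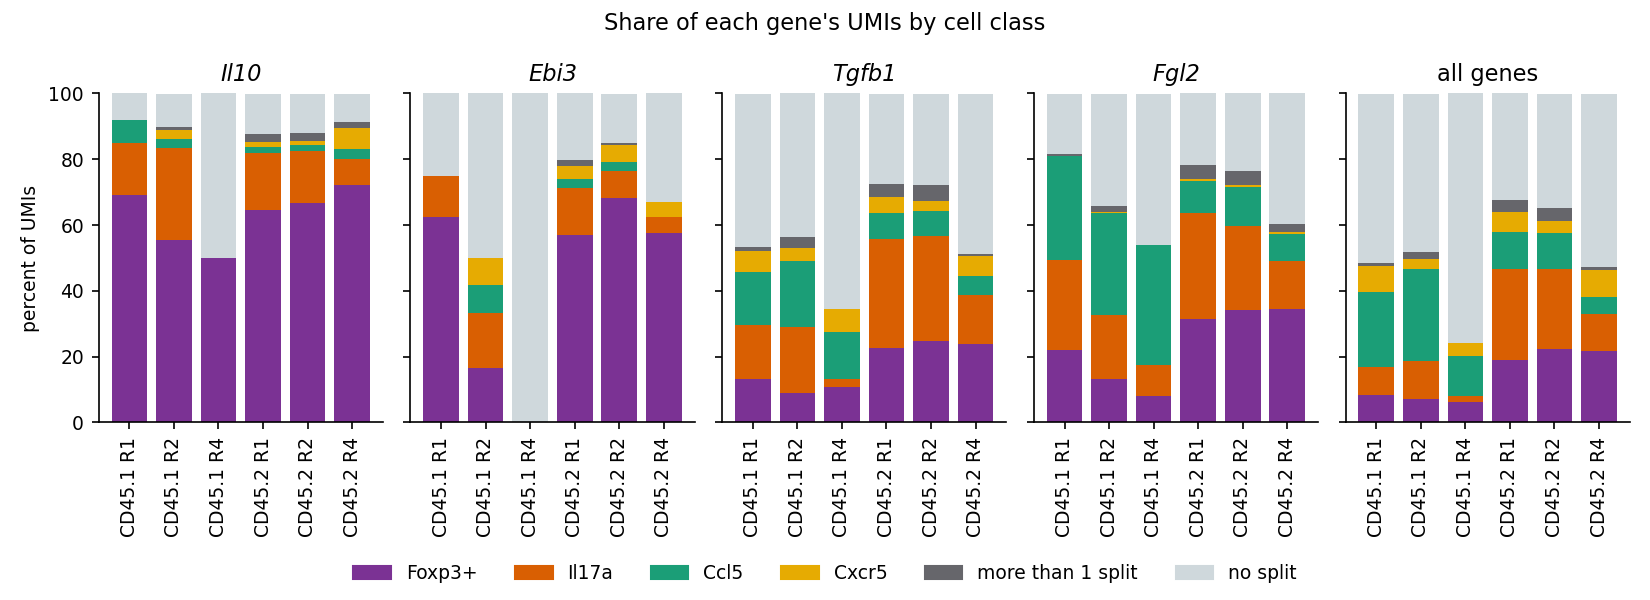
Percent of each gene's UMIs that lies in each cell class, per donor and recipient (R), with the same for all genes on the right. Foxp3+ cells hold over 50% of the Il10 UMIs in 5 of the 6 columns; the CD45.1 column of recipient 4 rests on 2 Il10 and 1 Ebi3 UMIs.

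Not every Foxp3+ cell gave a UMI of these genes, and a cell without one can still hold the RNA. To compare groups at equal depth, each barcode was thinned to 3000 UMIs, which lowers the share of cells with a UMI. After thinning, 60.5%, 57.3% and 18.0% of Bcl3-/- Foxp3+ cells had an Il10 UMI in recipients 1, 2 and 4 (68.0%, 64.0% and 25.7% without thinning, which left out 112, 118 and 55 shallower cells). In wild type Foxp3+ cells the thinned share was 37.9% (exact 95% interval 25.5 to 51.6) and 38.9% (25.9 to 53.1) in recipients 1 and 2 (49.2% and 42.6% without thinning, 3 and 7 cells left out). As a measure of background, naive-type cells (no-split cells with a UMI of both Ccr7 and Lef1) had an Il10 UMI in 1.5% and 3.90% of wild type and 3.90% and 2.36% of Bcl3-/- cells at the same depth. For Bcl3-/- Foxp3+ cells of recipients 1 and 2 the Il10 intervals were 57.9 to 63.0 and 54.9 to 59.8. All these intervals cover counting error over cells only, not the spread between animals, and are no test between donors. By the sums, Il10 was not called between donors in Foxp3+ cells (log2 difference 0.38, edgeR adjusted p = 0.39).

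The 3 other genes were seen in different shares of Foxp3+ cells. An Ebi3 UMI was present in 4.83%, 6.26% and 8.16% of thinned Bcl3-/- Foxp3+ cells, and in 2 of 58 and 0 of 54 wild type cells; on a floor of 3 counts, 0 of 54 allows a share of up to 5.56% of cells with a UMI. Fgl2 was present in 55.9%, 50.5% and 47.8% of Bcl3-/- and 41.4% and 46.3% of wild type Foxp3+ cells, against 1.5% to 5.51% of naive-type cells of recipients 1 and 2. Tgfb1 was present in 39.9%, 41.3% and 31.0% of Bcl3-/- and 36.2% and 35.2% of wild type Foxp3+ cells, but also in 18.2% to 27.6% of naive-type cells.

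**Figure D3:**
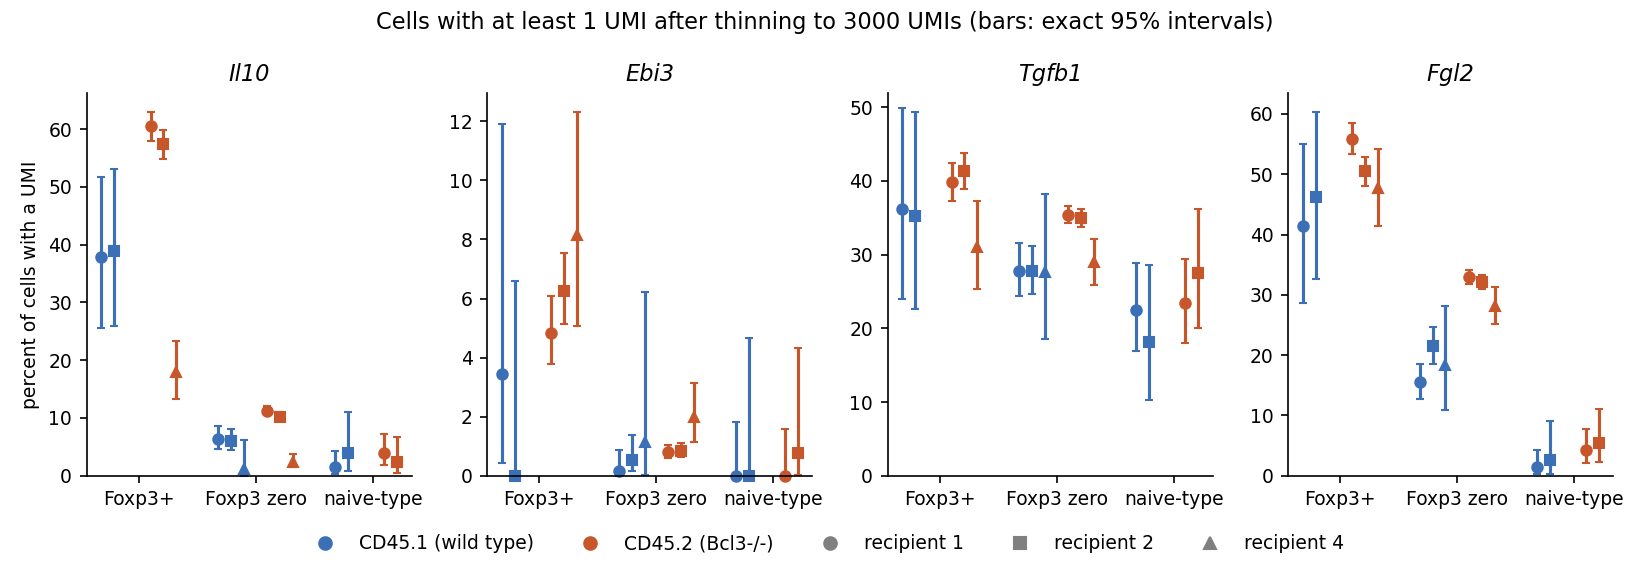
Percent of cells with at least 1 UMI of each gene after thinning to 3000 UMIs, with exact 95% intervals, for Foxp3+, Foxp3-zero and naive-type groups of at least 20 cells. Il10 is found in 60.5% and 57.3% of Bcl3-/- and 37.9% and 38.9% of wild type Foxp3+ cells of recipients 1 and 2, and in 18.0% of Bcl3-/- Foxp3+ cells of recipient 4.

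Il10 was also unevenly spread among Foxp3+ cells. In Bcl3-/- cells the 10% of Foxp3+ cells with most Il10 UMIs held 42.5%, 46.3% and 76.6% of them, and the highest single cell had 91, 74 and 17 UMIs. For Tgfb1 the top 10% held 38.6%, 39.2% and 48.0%, and its highest cells 12, 14 and 10 UMIs. In thinned Bcl3-/- cells, a Tgfb1 UMI was present in 42.9%, 46.4% and 36.4% of cells with Il10 and in 35.2%, 34.4% and 29.9% of those without. Fgl2 was present in 60.2%, 53.4% and 47.7% of cells with Il10 and in 49.4%, 46.5% and 47.8% of those without. Il10 and Ebi3 occurred together in 3.22%, 3.91% and 1.22% of cells, close to the product of their shares (2.92%, 3.59% and 1.47%). These are counts of cells of 1 animal each and carry no test.

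Foxp3+ cells were next split by Helios (Ikzf2), a marker of many thymus-derived regulatory T cells. Bcl3-/- Foxp3+ cells with an Ikzf2 UMI had 21.7, 33.1 and 33.5 CPM of Ebi3, and those without one 7.48, 7.21 and 13.6 CPM. In each recipient the cells with Ikzf2 were higher. Il10 in the same cells was 1063, 1012 and 156 CPM with and 1096, 748 and 143 CPM without Ikzf2, and Fgl2 355, 311 and 282 CPM with and 362, 314 and 289 CPM without. Fgl2 was thus no higher with Ikzf2 in any Bcl3-/- sum. Tgfb1, like Ebi3, was higher with Ikzf2 in each recipient, at 212, 203 and 159 CPM with and 182, 177 and 109 CPM without. In wild type Foxp3+ cells of recipients 1 and 2, all 7 Ebi3 UMIs lay in cells with Ikzf2, and Fgl2 was 321 and 254 CPM with and 143 and 99.5 CPM without Ikzf2. Wild type Il10 was 788 and 1127 CPM with and 636 and 141 CPM without, the last from 17 UMIs in 21 cells. Tgfb1 there was 199 and 178 CPM with and 181 and 158 CPM without. No test was run on this split.

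Whether the donors differed was asked first within Foxp3+ cells, and none of the 4 genes was called there. The log2 difference, Bcl3-/- minus wild type, was 0.38 (SE 0.16, edgeR adjusted p = 0.39) for Il10, 1.30 (SE 0.50, edgeR adjusted p = 0.34) for Ebi3, 0.48 (SE 0.14, edgeR adjusted p = 0.16) for Fgl2 and 0.07 (SE 0.13, edgeR adjusted p = 0.92) for Tgfb1. Without recipient 1 and without recipient 2 the Ebi3 value was 2.31 and 0.55 (edgeR adjusted p = 0.29 and 0.78), and that of Il10 0.20 and 0.64 (edgeR adjusted p = 0.74 and 0.10). All 4 values were above 0 with all 3 recipients, and 0.495% of 11308 genes were called in either direction. In both recipients with enough wild type cells, the Bcl3-/- value was the higher for all 4 genes. With every gene kept, Il10 (0.39, edgeR adjusted p = 0.016) and Fgl2 (0.49, edgeR adjusted p = 0.0088) passed the threshold. The wild type side rested on 122 cells, and the Foxp3+ sum of recipient 2 also held plasma cell transcripts, 32599 CPM over 5 markers against 15.9 to 3064 CPM in the other Foxp3+ sums. Without barcodes carrying markers of other cell types, the difference was 0.31 for Il10, 1.58 for Ebi3, 0.62 for Fgl2 (edgeR adjusted p = 0.070) and 0.07 for Tgfb1.

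Among Foxp3-zero cells, Il10, Ebi3 and Fgl2 were called higher in the Bcl3-/- donor. Il10 went from 29.6, 52.1 and 1.63 CPM in wild type to 138, 136 and 16.5 CPM in Bcl3-/- cells, higher in 3 of 3 recipients, a log2 difference of 1.62 (SE 0.17, edgeR adjusted p = 3.9e-05). The values of the donors overlapped between recipients, through the low Bcl3-/- value of recipient 4, and without the recipient as a block the difference was 1.42 and not called (edgeR adjusted p = 0.47). Fgl2 went from 80.9, 105 and 94.6 to 181, 172 and 150 CPM without overlap, a difference of 0.75 (SE 0.10, edgeR adjusted p = 2.4e-04; 0.71 and 0.051 with recipient 3 added). Ebi3, from 0.673, 1.97 and 1.63 to 3.17, 3.73 and 6.13 CPM, differed by 1.31 (SE 0.37, edgeR adjusted p = 0.033), and Tgfb1, from 116, 135 and 122 to 164, 170 and 134 CPM, by 0.23 (SE 0.08, edgeR adjusted p = 0.095). The background was 12.8% of 11308 genes called in either direction and 6.55% as higher.

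The Ebi3 call was the least firm. Without recipient 1 it was 1.00 (edgeR adjusted p = 0.25) and without recipient 4 it was 1.25 (edgeR adjusted p = 0.090), and the wild type side held 14 Ebi3 UMIs in all. The Tgfb1 difference depended on the scaling: by library size alone, which shifted the median of all genes by 0.13, it was 0.36 and called (edgeR adjusted p = 0.013).

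The composition of the Foxp3-zero compartment moved with the donor. All 4 naive cell markers counted, Ccr7, Lef1, S1pr1 and Klf2, were called lower in Bcl3-/- Foxp3-zero cells (median log2 difference -2.02) and summed to 1313, 545 and 985 CPM in wild type and 262, 243 and 241 CPM in Bcl3-/- cells. All 6 Th17 markers were called higher (median 1.68), and of 6 regulatory T cell markers other than Foxp3, which is 0 here by the choice of cells, 3 were called higher, Capg, Ctla4 and Ikzf2. Of all 11308 genes, 6.26% were called lower and 6.55% higher in this comparison, and their median was 0.002. An Ikzf2 UMI was found in 25.0%, 20.6% and 21.9% of wild type and 46.3%, 41.1% and 51.2% of Bcl3-/- Foxp3-zero cells. In Foxp3-zero cells without Ikzf2, Il10 was 25.3, 43.9 and 0 CPM in wild type and 112, 101 and 12.3 CPM in Bcl3-/- cells. Fgl2 was 59.5, 103 and 56.8 against 190, 180 and 153 CPM there. This split does not clear the group of regulatory T cells. Among Bcl3-/- Foxp3+ cells, 904 had no Ikzf2 UMI, with a mean of 662 CPM of Il10. The part of regulatory T cells with uncaptured Foxp3 in the donor difference was not tested. Within the no-split class, naive-type cells made up 51.4%, 18.4% and 14.1% of wild type and 7.59%, 4.15% and 2.13% of Bcl3-/- cells.

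Within single Foxp3-zero classes, Il10 and Fgl2 were called between donors in no-split cells. There Il10 was 13.5, 23.2 and 2.01 CPM in wild type (34, 61 and 1 UMIs) and 120, 109 and 7.56 CPM in Bcl3-/- cells, a log2 difference of 2.39 (SE 0.33, edgeR adjusted p = 2.9e-05; 2.18 and 0.18 without the recipient as a block). Fgl2 was 33.8, 80.2 and 58.4 against 144, 137 and 135 CPM, a difference of 1.14 (SE 0.20, edgeR adjusted p = 2.7e-04). In this class 9.77% of 10350 genes were called in either direction. With naive-type cells left out, the differences were 2.13 for Il10 (edgeR adjusted p = 3.5e-04) and 0.71 for Fgl2 (edgeR adjusted p = 0.0068). Ebi3 (1.27, SE 0.52) and Tgfb1 (0.12, SE 0.11) were not called (edgeR adjusted p = 0.14 and 0.55).

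In Il17a cells none of the 4 genes was called between donors. Il10 was 163 and 265 CPM in wild type and 198 and 207 CPM in Bcl3-/- cells of recipients 1 and 2, with overlap, a difference of -0.11 (SE 0.29, edgeR adjusted p = 0.98). The other 3 differences were 0.15 for Ebi3 (SE 0.96), -0.05 for Fgl2 (SE 0.22) and -0.15 for Tgfb1 (SE 0.13), where 0.0290% of genes were called. In Ccl5 cells Il10 differed by 1.53 (SE 0.45, edgeR adjusted p = 0.081) and Fgl2 by 0.70 (SE 0.21, edgeR adjusted p = 0.093), where 1.52% of genes were called. Both passed without recipient 1 (2.25 and 0.85, edgeR adjusted p = 0.041 and 0.044), and Fgl2 with naive-type cells left out (0.70, edgeR adjusted p = 0.020). They missed without recipient 2 (0.95 and 0.65, edgeR adjusted p = 0.69 and 0.45), without recipient 4 (1.47 and 0.61, edgeR adjusted p = 0.072 and 0.22) and in the other settings. In Cxcr5 cells, with 46 and 22 wild type cells, no gene of the 4 was called, as 0.0290% of genes were. Whether the donor difference differs between these classes was not tested.

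**Figure D4:**
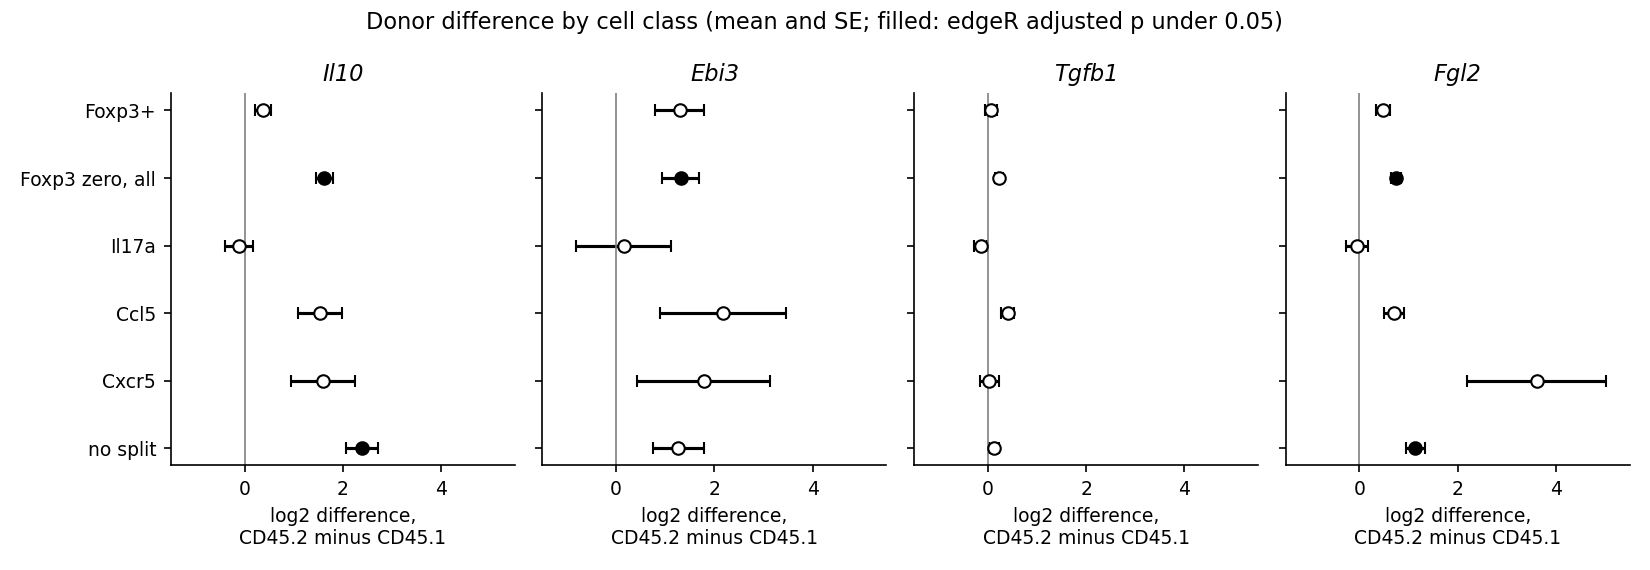
Log2 difference, Bcl3-/- minus wild type, for each gene in Foxp3+ cells, all Foxp3-zero cells and 4 Foxp3-zero classes. Bars give the standard error as derived from the F statistic of the test, and filled symbols have an edgeR adjusted p under 0.05. Il10 lies near 0 in Il17a cells (-0.11) and at 2.39 in no-split cells.

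The test of whether the donor difference itself differed between Foxp3+ and Foxp3-zero cells gave -1.24 for Il10 (SE 0.23, edgeR adjusted p = 0.13), which misses the threshold; 1 gene of 11308, or 0.00884%, was called. It passed with every gene kept (-1.28, edgeR adjusted p = 5.5e-14), without recipient 1 (-1.08, edgeR adjusted p = 0.043), without recipient 2 (-1.41, edgeR adjusted p = 0.023) and in cells of 3000 to 10000 UMIs (-1.25, edgeR adjusted p = 0.035). It missed in the other settings, among them without the recipient as a block (-1.57, edgeR adjusted p = 0.95) and with recipient 3 added (-1.83, edgeR adjusted p = 0.92). For Fgl2 it was -0.27 (SE 0.17), for Tgfb1 -0.17 (SE 0.15) and for Ebi3 -0.01 (SE 0.51), with edgeR adjusted p from 0.75 to 1.

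Over all kept cells, Il10 stood at 87.9, 108 and 3.06 CPM in wild type and 315, 319 and 46.5 CPM in Bcl3-/- cells, ratios of 3.58, 2.95 and 15.2. When the Bcl3-/- class levels were weighted by the wild type share of UMIs in each class, the ratios became 2.13, 1.55 and 6.63. For Ebi3 they went from 3.65, 4.15 and 7.39 to 2.66, 2.43 and 4.93, and for Fgl2 from 2.25, 1.80 and 1.86 to 1.81, 1.61 and 1.65. For Tgfb1 they went from 1.40, 1.28 and 1.07 to 1.22, 1.10 and 1.02. The ratio fell towards 1 with the class mix held equal for each gene in each recipient, and stayed above 1. The make-up within a class was not held equal. Of no-split cells, naive-type cells were 51.4%, 18.4% and 14.1% in wild type and 7.59%, 4.15% and 2.13% in Bcl3-/- cells. The part of this in the remaining ratios was not tested. In recipient 4 the wild type values came from 2 Il10 and 1 Ebi3 UMIs.

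Recipient 4 stood apart from recipients 1 and 2 for Il10. Its Bcl3-/- Foxp3+ cells had 154 CPM against 1071 and 960 CPM, and its no-split cells 7.56 CPM against 120 and 109 CPM. Ebi3 in the same Foxp3+ cells was 29.9 CPM, the highest of the 3, and Foxp3 was 565 CPM against 395 and 411 CPM. Without recipient 4 the Foxp3-zero donor difference of Il10 was 1.63 (edgeR adjusted p = 6.0e-04), close to its value with all 3.

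The partners and receptors of the 4 products were then counted, from lists drawn up with earlier results of these data known. Both classical partners of Ebi3 gave few UMIs: over 3700 Foxp3+ and 15874 Foxp3-zero cells, Il12a gave 1 and 4 UMIs and Il27 0 and 2 UMIs. A count of 0 in Foxp3+ cells allows up to 0.126 CPM. As the background for the counts that follow, 9.43% of 11308 genes were called higher and 8.62% lower in Bcl3-/- Foxp3+ cells, and 2.23% and 1.95% in wild type. Between donors it was 0.495% in either direction in Foxp3+ cells, and 6.55% higher and 6.26% lower in Foxp3-zero cells. Of 6 other IL-12 family genes, 4 passed the filter, and the receptor subunit gene Il12rb2 was lower in Foxp3+ cells of both donors (-1.85 in wild type and -2.04 in Bcl3-/- cells); Il12rb1 and Il6st were higher in Bcl3-/- Foxp3+ cells (0.38 and 1.08). Between donors 0 of 4 were called in Foxp3+ cells and Il12rb1 (0.73) and Il12rb2 (0.43) were higher in Bcl3-/- Foxp3-zero cells.

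The receptor Il10ra averaged 15.7 ± 4.35 CPM (SD, n = 3) in Bcl3-/- Foxp3+ cells and 4.75 ± 0.562 CPM (SD, n = 3) in their Foxp3-zero cells, a log2 difference of 1.62 (edgeR adjusted p = 1.3e-05). In all, 4 of 6 IL-10 receptor and signalling genes were higher in Foxp3+ cells of that donor and none in wild type, where 9.43% and 2.23% of all genes were. Among Foxp3-zero cells 3 of the 6 were lower in Bcl3-/- cells, against 6.26% of all genes, namely Il10ra (-0.87), Socs3, a STAT3 target and feedback inhibitor (-0.58), and Jak1 (-0.30). The list's median there was -0.19, against 0.00 over all genes. The Fc receptor genes Fcgr2b and Fcgr3, whose products bind Fgl2, gave 6 and 7 UMIs in 3700 Foxp3+ cells.

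Several genes that handle TGF-beta differed with Foxp3. Of 15 tested, 6 were higher and 4 lower in Bcl3-/- Foxp3+ cells, and 5 and 2 in wild type. Of all genes it was 9.43% and 8.62%, and 2.23% and 1.95%. Lrrc32 averaged 16.8 CPM in Bcl3-/- Foxp3+ and 1.76 CPM in Foxp3-zero cells, and 47.5 and 0.272 CPM in wild type. Itgb8 was higher in Foxp3+ cells by 2.69 in Bcl3-/- and 4.50 in wild type cells, and Itgae, an integrin gene that TGF-beta induces, by 2.79 and 2.64. Tgfbr3, a co-receptor gene, was lower in Bcl3-/- Foxp3+ cells (-2.42). Between donors in Foxp3+ cells, Furin was higher in Bcl3-/- cells (1.67, edgeR adjusted p = 0.0060; 160 against 422 CPM on average) and Lrrc32 lower (-1.55, edgeR adjusted p = 0.034; 47.5 against 16.8 CPM). In Foxp3-zero cells both were higher in Bcl3-/- cells, Furin by 1.40 and Lrrc32 by 1.89, and 4 of 15 genes were called higher and 3 lower, against 6.55% and 6.26% of all genes.

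Several known regulators of Il10 in T cells were called as well. In Bcl3-/- cells 4 of 12 were higher in Foxp3+ cells, among them Prdm1 (0.70), which encodes Blimp-1, and Maf (0.60), and 3 were lower, led by Ikzf1 (-0.68). Between donors none of 12 was called in Foxp3+ cells, near the 0.495% of all genes, while 6 were higher and 1 lower in Bcl3-/- Foxp3-zero cells, against 6.55% and 6.26%. These were led by Nfil3 (1.03), Prdm1 (0.89), Maf (0.87) and Ikzf3 (0.81), with Ikzf1 lower (-0.42). The median of the 12 was 0.43 in Foxp3-zero cells. Of 16 other suppressive genes, 14 were higher in Bcl3-/- and 12 in wild type Foxp3+ cells, led by the costimulatory receptor gene Tnfrsf9 (2.64 and 3.42). Between donors 0 of 16 were called in Foxp3+ cells, again near the 0.495% of all genes, and 7 were higher in Bcl3-/- Foxp3-zero cells, against 6.55%, led by Havcr2 (1.19), Ctla4 (1.14) and Gzmb (0.94). Of 8 NF-kB genes, Nfkbid alone was called between donors, lower in Bcl3-/- Foxp3-zero cells (-0.88).

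The genes whose levels followed each member most closely were read from 26 sums of at least 50 cells, after removal of recipient means, over 7716 genes. The highest Pearson correlations were with Mmd (0.94), Arl5a, Ncmap, Glrx and Ubl3 (0.91) for Il10 and with Bmp2k (0.91), Pck2, Icos, Cldnd1 and Glb1 (0.87) for Ebi3. They were with Capg (0.94), Sp3, Sdc4, Nckap5 and Rbm24 (0.92) for Tgfb1 and with Ccr9 (0.97), Camk2n1, 2010111I01Rik, F2r and Vim (0.94) for Fgl2. Among the 4 genes, Il10 correlated with Tgfb1 at 0.73 and with Ebi3 at 0.69, and Ebi3 with Fgl2 at 0.11. The sums share recipients and libraries, so these values are a description.

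Position bears on the donor comparison for a pair of the genes. Il10 lies 7.04 Mb from Ptprc, the gene that carries the CD45.1 and CD45.2 alleles, and Tgfb1 lies 5.86 Mb from Bcl3. A donor difference of Il10 or Tgfb1 that comes with strain sequence around those alleles cannot be told apart here from one that comes with the genotype. Ebi3 and Fgl2 lie on chromosomes 17 and 5, away from both.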

How the data were processed

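From 10x Genomics 3' libraries the authors deposited filtered matrices of UMI counts per gene and cell. The submitters' processing notes name Cell Ranger 6.1.1 and mm10; annotation and intron settings: not given in the sources used here. The 4 genes and all lists were chosen with earlier results of these data known. Barcodes with at least 500 genes and at most 10% mitochondrial UMIs were kept, and no doublet caller was run. Deposited counts were summed per recipient, donor and class in sums of at least 20 cells. They were tested with edgeR 4.0.16 in R 4.3.3 (TMM, filterByExpr, quasi-likelihood test, recipient as a block, Benjamini-Hochberg adjustment over all genes tested, threshold 0.05), in 1 model of 11 sums for the Foxp3 and donor comparisons and 1 of 28 sums for the classes. Both donors' cells came from the same animal, which pairs them. Same-animal sums deviated together over 3170 genes (r = 0.364, 0.818 and 0.735). Recipient 1 was not set apart by this. Its Bcl3-/- cells went as closely with the wild type cells of recipient 2 (r = 0.382). The other values between animals were negative. Each donor was centred on its own mean over the recipients, which pushes such values down, so their sign is no separate check of the pairing. Of the naive cell markers 1 gene is not reported here, and naive-type cells were taken by Ccr7 and Lef1 without it, a definition set after the data were seen. Levels are counts per 1000000 gene UMIs (CPM). The SE of an edgeR log2 difference is its size divided by the square root of the F statistic of the test. Shares were thinned to 3000 UMIs per cell with exact Clopper-Pearson 95% intervals, in Python 3.11.15 with scipy 1.17.1. The test scripts were tested on simulated data. Between donors in Foxp3+ cells, 34% of simulated log2 changes of 1 and 67% of those of 2 were recovered. In Foxp3-zero cells it was 87% and 95%, so a missed call says less in Foxp3+ cells. The simulated sums shared 1 expression profile, without differences between recipients or classes other than the changes put in. The rates are taken over genes drawn at random and are not rates for the 4 genes. DESeq2 1.42.0 and the other alternatives are given at the end. From each list the genes named were at most 4 per comparison, by size among those called with at least 5 CPM in either group, and for each of the 4 genes the 5 most correlated genes; other names were chosen after their values were seen.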

Additional observations from a re-analysis of the deposited data

Results flagged for a closer look

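Recipient 3 entered no comparison, yet its Bcl3-/- Foxp3-zero cells held Il10 at 312 CPM, above the 138, 136 and 16.5 CPM of recipients 1, 2 and 4, and Ebi3 at 12.1 CPM, above their 3.17, 3.73 and 6.13 CPM. Its Foxp3+ cells had Il10 at 373 CPM and Ebi3 at 13.3 CPM, so both genes differed little between Foxp3+ and Foxp3-zero cells there. Foxp3 stood at 121 CPM in its Foxp3+ cells, against 395 to 565 CPM in the other recipients, and 32.4% of its Bcl3-/- cells met more than 1 of the Il17a, Ccl5 and Cxcr5 splits, against 0.776% to 2.94%. Its Bcl3-/- Foxp3+ cells had a median of 12362 UMIs, against 5252 to 5554 elsewhere. The part of depth and mixed transcripts in these values was not tested.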

How the results depend on the processing

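The depth limits the wild type side: 122 Foxp3+ cells, and 1 to 12 Ebi3 UMIs per recipient in all. Cells of 3000 to 10000 UMIs, barcodes with T cell receptor RNA, naive-type cells and the class settings with recipient 3 were alternatives chosen after seeing the data.

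Pairing by animal bore on several values. With no replicate block the donor difference was -0.15 for Il10 and -0.035 for Tgfb1 in Foxp3+ cells, 1.42 for Il10 and 1.38 for Ebi3 in Foxp3-zero cells (both no longer called), and the Ebi3 difference of differences was 0.061. In the classes without the block, Tgfb1 was -0.072 between donors in Cxcr5 cells, Fgl2 was -0.0086 for Il17a minus Ccl5, and Tgfb1 was 0.0055 for Ccl5 minus Cxcr5. Genes called without the block numbered 203 and 767 for Foxp3 in wild type and Bcl3-/- cells (472 and 2041 with it) and 3 and 469 between donors in Foxp3+ and Foxp3-zero cells (56 and 1449 with it).

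With recipient 3 added, Fgl2 was no longer called for Foxp3 in wild type (1.07) or between donors in Foxp3-zero cells (0.71), nor Ebi3 in the latter (1.79). Tgfb1 between donors in Cxcr5 cells was -0.017 and Fgl2 for Il17a minus Ccl5 -0.061, and the 4 counts were 59, 534, 3 and 524. With no filter on low counts the following passed: Ebi3 for Foxp3 in wild type (2.66), Il10 (0.39) and Fgl2 (0.49) between donors in Foxp3+ cells, Tgfb1 in Foxp3-zero cells (0.28) and the Il10 difference of differences (-1.28); counts were 852 for Foxp3 in wild type and 423 between donors in Foxp3+ cells. DESeq2 called Ebi3 for Foxp3 in wild type (2.71) and Tgfb1 in Bcl3-/- cells (0.23), and 222 genes between donors in Foxp3+ cells. In cells of 3000 to 10000 UMIs, Ebi3 (3.42) in wild type, Tgfb1 for Foxp3 in Bcl3-/- cells (0.23), Tgfb1 between donors in Foxp3-zero cells (0.27) and the Il10 difference of differences (-1.25) passed.

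Foxp3 at 2 or more UMIs gave Tgfb1 0.24 for Foxp3 in Bcl3-/- cells (called), -0.014 between donors in Foxp3+ cells, and 10 genes called in the latter. The 8-fold tag ratio gave 0.24 for Tgfb1 (called) and 0.019 for the Ebi3 difference of differences, which was 0.33 without barcodes of other cell types. A fit per comparison gave Tgfb1 0.22 (called), Ebi3 1.31 between donors in Foxp3-zero cells (not called) and 285 genes between donors in Foxp3+ cells; without cells above 3 times the median UMI count that number was 32. Library size alone gave Tgfb1 0.36 between donors in Foxp3-zero cells (called). With cells put in the first split met, Fgl2 for Foxp3+ minus Il17a in wild type was 0.056, and Il10 and Fgl2 between donors in Il17a cells 0.058 and 0.044; without naive-type cells the first of these was 0.0069.

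Leaving out 1 recipient at a time gave, between donors in Foxp3-zero cells, 0.996 to 2.0 for Ebi3. The difference of differences ranged from -1.41 to -1.08 for Il10 and from -1.45 to 1.31 for Ebi3. In wild type classes, Foxp3+ minus Il17a ranged from -0.22 to 0.22 for Fgl2, and Foxp3+ minus Cxcr5 from -0.11 to 0.93 for Tgfb1 and from -0.25 to 8.57 for Ebi3. Between donors in Il17a cells the ranges were -0.36 to 0.33 for Il10, -0.29 to 0.21 for Fgl2 and -0.015 to 0.35 for Ebi3, and in Cxcr5 cells -0.48 to 0.34 for Tgfb1. In Bcl3-/- classes they were -0.12 to 0.11 for Fgl2 (Il17a minus Ccl5), -0.19 to 0.11 for Tgfb1 (Ccl5 minus Cxcr5), and -0.38 to 0.076 for Il10 and -0.063 to 1.18 for Ebi3 (Cxcr5 minus no-split). The 4 counts ranged from 285 to 304, 1107 to 1817, 19 to 72 and 795 to 1115. The fit leaving a group with 1 sum assumes that it varies like the others. Of the Foxp3, donor and difference values for the 4 genes, 286 kept direction and side of the threshold. Another 8 reversed direction, 17 gained a call and 8 lost it. For the class values the numbers were 611, 21, 5 and 43. The 286 include values that could not change. A lower minimum of cells per sum called the same genes in number as the main setting in each of these comparisons. The fit per comparison did so for the difference of differences. The cause of the changes was not tested.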

Other observations

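Tgfb1 and Fgl2 in the Bcl3-/- Foxp3+ cells of recipient 3 were 157 and 107 CPM, and in its Foxp3-zero cells 152 and 116 CPM. In the 29 wild type Foxp3-zero cells of recipient 3, Il10 stood at 71.0 CPM, Tgfb1 at 142 CPM and Fgl2 at 107 CPM, from 20, 40 and 30 UMIs, and Ebi3 had 0 UMIs, which allows up to 10.7 CPM.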
